A study of Mus musculus with 4 samples.

Results

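Trp53, which encodes the transcription factor p53, and 9 genes that p53 switches on were followed in ventricles of newborn mice, as a readout of DNA damage signalling in hearts that carry a Cre recombinase. The genes were taken from a list of symbols, namely Trp53, Mdm2, Ccng1, Bax, Bbc3, Phlda3, Eda2r, Zmat3, Sesn1 and Trp53inp1. All 10 were found among the 53465 genes in the files and all 10 passed the filter on low counts, which left 18157 genes. RNA came from hearts at postnatal day 1, and the 4 libraries formed 2 groups of 2. Knockout-labelled mice were Ctnnb1floxP/floxP; alphaMHC-Cre+, and control mice were Ctnnb1floxP/floxP; alphaMHC-Cre-, so both groups carried the floxed alleles of Ctnnb1, the gene of β-catenin. The alphaMHC promoter drives Cre in cardiomyocytes, and other cells of the ventricle keep the floxed gene. The knockout-labelled mice differ from the controls by the transgene as well as by the deletion, and the effect of Cre and that of the deletion cannot be told apart. Nothing in the labels says that the libraries of a group come from separate animals, so p-values measure only the spread between these libraries. Knockout-labelled 1 had the RNA of a male heart and knockout-labelled 2 that of a female heart, so these libraries came from different animals. Both controls had the RNA of male hearts, and whether they came from separate animals was not tested.

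p53 is made all the time and destroyed as fast, mainly through the ubiquitin ligase Mdm2, and DNA damage stops that destruction through the kinases Atm, Atr, Chek1 and Chek2. Because the control is on the protein, the Trp53 transcript itself reports little about p53 activity, and the transcripts of its targets are read in its place. These targets feed back on p53 (Mdm2, Ccng1), halt the cell cycle (Cdkn1a), open the way to cell death (Bax, Bbc3) or adjust metabolism and growth signals (Sesn1, Phlda3). p53 binds DNA as a tetramer on a pair of half-sites, each a short palindrome.

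The stretches of promoter that hold a match to such a half-site are shown to give the letters around it. RefSeq windows on GRCm38.p6, from 250 bases before to 50 bases after a start site, were at hand for 8 of the 10 genes, in 11 windows. The 10-base p53 half-site motif, which reads alike on both strands, was searched without mismatches. It was present in 5 of these 11 windows, 1 each of Trp53, Mdm2, Ccng1, Bax and Sesn1, and in 8.36% of all 32851 windows of the same length. Each of these 5 windows held 1 match and not a pair. A match is a description of the letters and not a bound site. In the lines that follow the half-site is in capitals and the strand is that of the gene, with 20 bases on either side. They lie at chr11:69580264-69580313 on the plus strand for Trp53, chr10:117710915-117710964 on the minus strand for Mdm2, chr7:45467070-45467119 on the minus strand for Bax and chr10:41887246-41887295 on the plus strand for a start inside Sesn1. For Ccng1, the gene with the clearest difference between the groups, the 225 bases before its first GENCODE exon are given, at chr11:40755312-40755536 on the minus strand, and their half-site begins 185 bases before the RefSeq start.
Trp53: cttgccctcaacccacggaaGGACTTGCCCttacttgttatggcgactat
Mdm2: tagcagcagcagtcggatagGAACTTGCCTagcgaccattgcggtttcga
Bax: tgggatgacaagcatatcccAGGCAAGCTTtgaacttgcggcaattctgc
Sesn1: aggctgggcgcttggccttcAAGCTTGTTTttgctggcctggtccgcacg
Ccng1: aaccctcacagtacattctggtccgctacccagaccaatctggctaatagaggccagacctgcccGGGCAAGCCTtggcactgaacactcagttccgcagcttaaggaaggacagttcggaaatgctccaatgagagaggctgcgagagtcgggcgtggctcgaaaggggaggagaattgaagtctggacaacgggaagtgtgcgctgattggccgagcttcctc

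The libraries held between 34027143 and 45651797 counts in genes. Ctnnb1 was at 527 and 460 CPM (counts scaled to the TMM-adjusted library size) in knockout-labelled libraries 1 and 2, against 409 and 434 CPM in control libraries 1 and 2. The count covers the whole gene and the non-myocytes, and which exons are floxed is not in the labels, so it does not check the genotype. Knockout-labelled 2 had the RNA of a female heart, with Xist at 602 CPM and no read of Kdm5d, and the other 3 libraries had that of male hearts. Control 1 contained transcripts of thymus or T cells. The 17 markers of these cells, Cd4, Cd8a, Rag1 and Lck among them, summed to 5.32 and 4.30 CPM in knockout-labelled 1 and 2, against 516 CPM in control 1 and 12.1 CPM in control 2. The 10 cardiomyocyte markers, with Myh6 as the most abundant, were detected in every library at summed levels of 59970 and 69600 CPM in knockout-labelled hearts, against 55640 and 48680 CPM in the controls. All 12 T-cell markers that passed the filter were lower in both knockout-labelled libraries, and Cd3e had no read in knockout-labelled 1 and Cd8b1, Rag2, Ptcra and Dntt none in knockout-labelled 2. Markers of smooth muscle and pericytes summed to 1722 and 1452 CPM in knockout-labelled libraries, against 528 and 734 CPM in controls. That sum was mostly Acta2, at 1375 and 1137 CPM in knockout-labelled libraries, against 173 and 332 CPM in controls, while of the other 5 markers Myh11 and Pdgfrb were lower without overlap and 3 overlapped. Fibroblast markers summed to 2884 and 2845 CPM against 1767 and 2649 CPM, with 2 of 6 higher without overlap and 4 overlapping. Markers of the atrium summed to 1133 and 937 CPM in knockout-labelled libraries, against 1232 and 2179 CPM in controls. Of the 5 atrial markers, 3 were lower without overlap and 2 overlapped. Those of B cells summed to 3.32 and 4.67 CPM against 20.2 and 6.40 CPM, with 4 of the 5 tested lower without overlap and 1 overlapping. Erythroid markers summed to 765.5 and 662.1 CPM in knockout-labelled libraries, against 1092 and 1123 CPM in controls. Of these 7 markers, 5 were lower and 1 higher without overlap. Macrophage markers summed to 114.6 and 151.1 CPM against 145 and 115.3 CPM, with 4 of 7 lower and 2 higher. Endothelial markers summed to 1217 and 1250 CPM against 1297 and 1400 CPM, with 3 of 6 lower without overlap and 3 overlapping. Of all genes, 29.7% were lower and 26.5% higher without overlap. Mitochondrial genes took 10.2% and 14.4% of gene counts in knockout-labelled libraries, against 5.25% and 7.65% in controls. The part of these differences in the results was not tested. Alignments counted as not unique took 23.9% and 29.7% of all counted reads in the knockout-labelled libraries, against 19.4% and 20.98% in the controls. In whole ventricle, fewer cells of a type and less RNA per cell cannot be told apart.

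The share of the 10 genes that differed between the groups was near the share among all genes. Ccng1 was about 2-fold higher in the knockout-labelled hearts and Phlda3 was 1.39-fold higher, Bbc3 was at 0.629 of its control level, and Mdm2 and Bax were close to their control levels. At an adjusted p under 0.05, edgeR's quasi-likelihood test passed 0 of the 10 genes, against 0.011% of all genes tested, and limma-voom also passed 0. At an unadjusted p under 0.05, edgeR had 2 of the 10 higher (Ccng1 and Phlda3) and 1 lower (Bbc3), against 11.8% higher and 11.2% lower of all genes. limma-voom had 3 of the 10 at that level, against 22.2% of all genes. DESeq2, which passed 10.5% of all genes with an adjusted p, passed 1 of the 10, Ccng1. On a single simulated set of this size the share of false calls was above the threshold in edgeR, limma-voom and DESeq2, and highest in DESeq2. Those counts were drawn with edgeR's dispersions and only a small share of genes was changed. The check therefore neither gives the share of false calls in these data nor ranks the tools. Adjusted p-values, DESeq2's included, are read with caution. In TMM-scaled CPM the groups did not overlap for 5 of the 10 genes, with the knockout-labelled libraries above for 3 and below for 2, against 56.2% of all genes, 26.5% above and 29.7% below. The median log2 fold change was 0.12 over the 10 genes and -0.02 over all genes tested, and that of the 10 became -0.06 without control 2 and -0.07 without knockout-labelled 2.

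**Figure D1:**
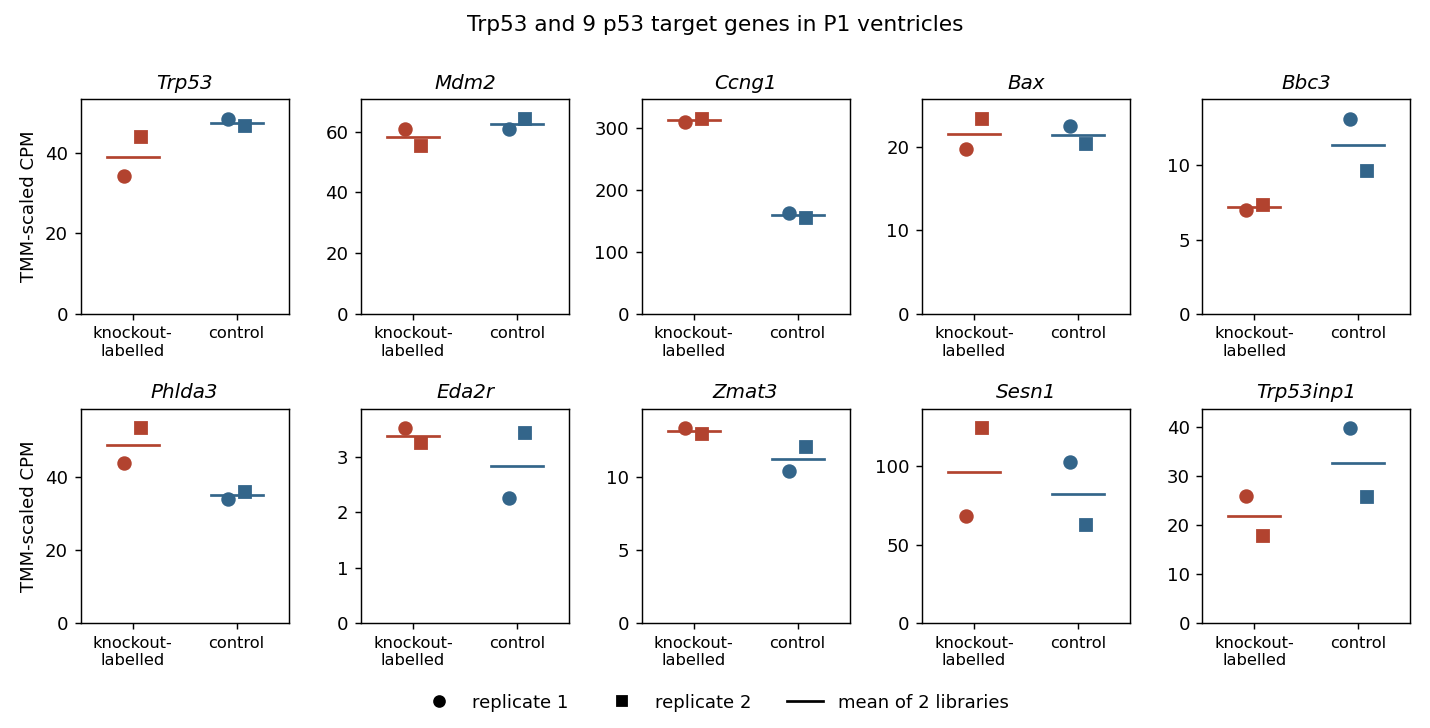
TMM-scaled CPM (vertical axis, from 0) of each of the 10 genes in the 2 knockout-labelled libraries (left) and the 2 control libraries (right), with circles for replicate 1, squares for replicate 2 and a line at the mean. Ccng1 lies at 311 and 315 CPM in knockout-labelled hearts, clear of the controls at 164 and 155 CPM, while the replicates of Sesn1 are farther apart than the group means.

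Per kilobase of exon, Ccng1 was by far the most abundant of the 10 transcripts and Eda2r the least. Ccng1 stood at 89.2 ± 0.894 RPKM in knockout-labelled hearts and 45.3 ± 1.75 RPKM in control hearts (SD, n = 2 each). Phlda3 followed at 31.2 ± 4.27 RPKM in knockout-labelled hearts and 22.4 ± 0.881 RPKM in control hearts, and Sesn1 at 24.2 ± 9.91 RPKM and 20.7 ± 7.18 RPKM in the same order. The levels of Phlda3 and Sesn1 were not separated beyond their spread. Bax, Mdm2 and Trp53 formed a middle tier of 9.64 to 13.7 RPKM in knockout-labelled hearts and 11.7 to 13.6 RPKM in control hearts. Bbc3 and Trp53inp1 lay lower, at 3.37 ± 0.0967 and 3.37 ± 0.878 RPKM in knockout-labelled hearts and at 5.36 ± 1.16 and 5.06 ± 1.53 RPKM in control hearts, and did not differ from each other beyond their spread in either group. Zmat3 was at 1.15 RPKM in knockout-labelled hearts and 0.979 RPKM in control hearts, and Eda2r at 0.574 RPKM and 0.483 RPKM in the same order.

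Trp53 lies on chromosome 11 from 69580359 to 69591873 (GRCm38). Its transcript was at 34.2 and 43.8 CPM in knockout-labelled hearts 1 and 2, against 48.3 and 46.5 CPM in control libraries 1 and 2. Both knockout-labelled libraries were below both controls, with the gap set mostly by knockout-labelled 1. The log2 fold change was -0.28 ± 0.18 (SE, edgeR; adjusted p = 0.393) and its 95% interval was -0.72 to 0.16. It was -0.06 without knockout-labelled 1, -0.46 without knockout-labelled 2, -0.10 with trends in GC content and length removed and -0.53 with library totals alone. The processed pseudogene Trp53-ps, 94.9% identical to the transcript over 1090 bases, had at most 1 read in any library.

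Of the genes that feed back on p53, the ubiquitin ligase was level and the cyclin was not. Mdm2, on chromosome 10 from 117688875 to 117710758, was at 61.0 and 55.4 CPM in knockout-labelled libraries, against 60.9 and 64.2 CPM in controls. Its log2 fold change was -0.10 ± 0.15 (SE, edgeR; adjusted p = 0.721), and the 95% interval allows a level between 0.719 and 1.20 times that of the controls. Ccng1, on chromosome 11 from 40748552 to 40755311, encodes cyclin G1, which brings protein phosphatase 2A to Mdm2 and is among the genes most directly tied to p53. It was at 311 and 315 CPM in knockout-labelled hearts 1 and 2, against 164 and 155 CPM in control libraries 1 and 2. The replicates of each group lay close together and the groups were far apart.

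The group means of Ccng1 were 313 ± 3.14 CPM in knockout-labelled hearts and 159 ± 6.16 CPM in control hearts (SD, n = 2 each). The log2 fold change was 0.98 ± 0.17 (SE) with a 95% interval of 0.55 to 1.40. Its adjusted p was 0.0925 in edgeR and 2.19e-05 in DESeq2, with values between 1.95e-06 and 0.615 in the alternatives. By unadjusted p in edgeR (0.00134) it ranked 254 among the 18157 genes. The authors' deposited table gave a log2 fold change of 1.00 and an adjusted p of 2.4e-05. The estimate was as large without control 1 (1.02) and without knockout-labelled 2 (0.98), the libraries with thymus transcripts and with the female pattern. DESeq2 no longer called it without control 1 (adjusted p = 0.282) or without control 2 (adjusted p = 0.212), fits in which the lone control is assumed to vary like the knockout-labelled pair. With trends in GC content and transcript length removed, the log2 fold change was 0.74.

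Among the 10 genes, the cell death genes Bax and Bbc3 were level and lower, in that order, in the knockout-labelled hearts, without passing the adjusted test. Other apoptosis targets are given below. Bax, on chromosome 7 from 45461697 to 45466898, encodes the protein that opens the outer mitochondrial membrane during apoptosis. It was at 19.7 and 23.3 CPM in knockout-labelled libraries, against 22.5 and 20.4 CPM in controls, so the groups overlapped fully. Its 95% interval ran from 0.728 to 1.39 times the control level. Bbc3, on chromosome 7 from 16308393 to 16318205, encodes Puma, which frees Bax from its inhibitors. Its transcript was at 7.02 and 7.31 CPM in knockout-labelled libraries, against 13.1 and 9.65 CPM in controls. Both knockout-labelled libraries were below both controls, and control 1, the library with thymus transcripts, was the highest. The log2 fold change of Bbc3 was -0.67 ± 0.27 (SE, edgeR; adjusted p = 0.207), with a 95% interval of -1.32 to -0.02. It was -0.43 without control 1, -0.87 without control 2 and -0.35 with trends in GC content and length removed.

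Eda2r and Trp53inp1 are further targets linked to cell death. Eda2r, on the X chromosome from 97333840 to 97377216, encodes a receptor of the tumour necrosis factor receptor family. It was the scarcest of the 10, at 156 and 96 reads in knockout-labelled libraries and 105 and 168 reads in controls, or 3.52 and 3.25 CPM against 2.25 and 3.43 CPM. The groups overlapped, the log2 fold change was 0.25 ± 0.35 (SE, edgeR; adjusted p = 0.710), and it was 0.32 without the female library and -0.02 without control 1. Trp53inp1, on chromosome 4 from 11156431 to 11174379, encodes a stress-induced cofactor of p53 that is also known as thymus-expressed acidic protein. It was at 25.8 and 17.8 CPM in knockout-labelled libraries, against 39.7 and 25.7 CPM in controls. Control 1 stood above the other 3 libraries, while control 2 and knockout-labelled 1 were level. The log2 fold change was -0.58 ± 0.29 (SE, edgeR; adjusted p = 0.279). It was -0.24 without control 1 and -0.33 without knockout-labelled 2, but -0.86 without control 2 and -0.83 without knockout-labelled 1. With trends in GC content and length removed it was -0.88. The part of the thymus transcripts of control 1 in the values of Bbc3 and Trp53inp1 was not tested beyond these fits.

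**Figure D2:**
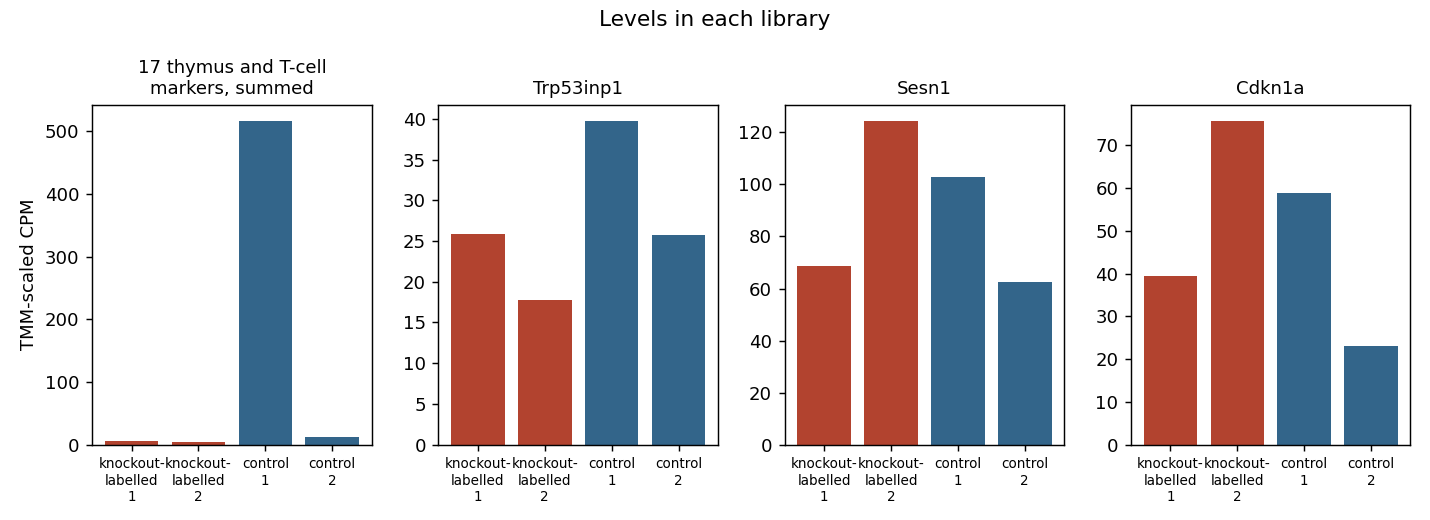
TMM-scaled CPM (vertical axis, from 0) in each of the 4 libraries for the sum of 17 thymus and T-cell markers and for Trp53inp1, Sesn1 and Cdkn1a, with knockout-labelled libraries in red and controls in blue. Control 1 holds 516 CPM of the markers and the highest Trp53inp1, and Sesn1 and Cdkn1a are both higher in knockout-labelled 2 and control 1 than in the other 2 libraries.

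Phlda3 and Zmat3 were a little higher in the knockout-labelled hearts, and Sesn1 followed single libraries. Phlda3, on chromosome 1 from 135766119 to 135769136, encodes a small membrane-binding protein that holds back the kinase Akt. It was at 43.9 and 53.3 CPM in knockout-labelled libraries, against 34.0 and 35.9 CPM in controls, without overlap. The log2 fold change was 0.48 ± 0.17 (SE, edgeR; adjusted p = 0.175), with a 95% interval of 0.06 to 0.89. It was 0.23 with library totals alone, a scaling that also moved the median of all genes to -0.26. With trends in GC content and length removed it was 0.655, and it was 0.662 without knockout-labelled 1 and 0.339 without knockout-labelled 2. Zmat3, on chromosome 3 from 32334792 to 32366014, encodes a zinc finger protein that binds RNA. It was at 13.3 and 12.9 CPM in knockout-labelled libraries, against 10.4 and 12.0 CPM in controls. These groups did not overlap, but the log2 fold change was only 0.23 ± 0.22 (SE, edgeR; adjusted p = 0.574) and was -0.01 with library totals alone.

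Sesn1, on chromosome 10 from 41809935 to 41908424, encodes sestrin 1, a stress protein that restrains growth signalling through mTOR. It was at 68.6 and 124 CPM in knockout-labelled libraries, against 103 and 62.4 CPM in controls. Knockout-labelled 2 and control 1 were high and the other 2 libraries low, so the spread within each group was larger than the difference between the group means. The log2 fold change was 0.22 ± 0.35 (SE, edgeR; adjusted p = 0.745), and it was -0.26 without knockout-labelled 2 and 0.63 without control 1. Cdkn1a, which is not among the 10 but encodes p21, the cell cycle inhibitor through which p53 arrests growth, had the same pattern. It was at 39.5 and 75.7 CPM in knockout-labelled libraries, against 58.8 and 23.0 CPM in controls. Its log2 fold change was 0.49 ± 0.49 (SE, edgeR; adjusted p = 0.588), and the 95% interval allows a level between 0.612 and 3.23 times that of the controls. The value was 1.32 without control 1, -0.02 without control 2 and -0.04 without knockout-labelled 2. A promoter window of Cdkn1a held 2 half-sites, and 0.359% of all windows held 2 or more.

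**Figure D3:**
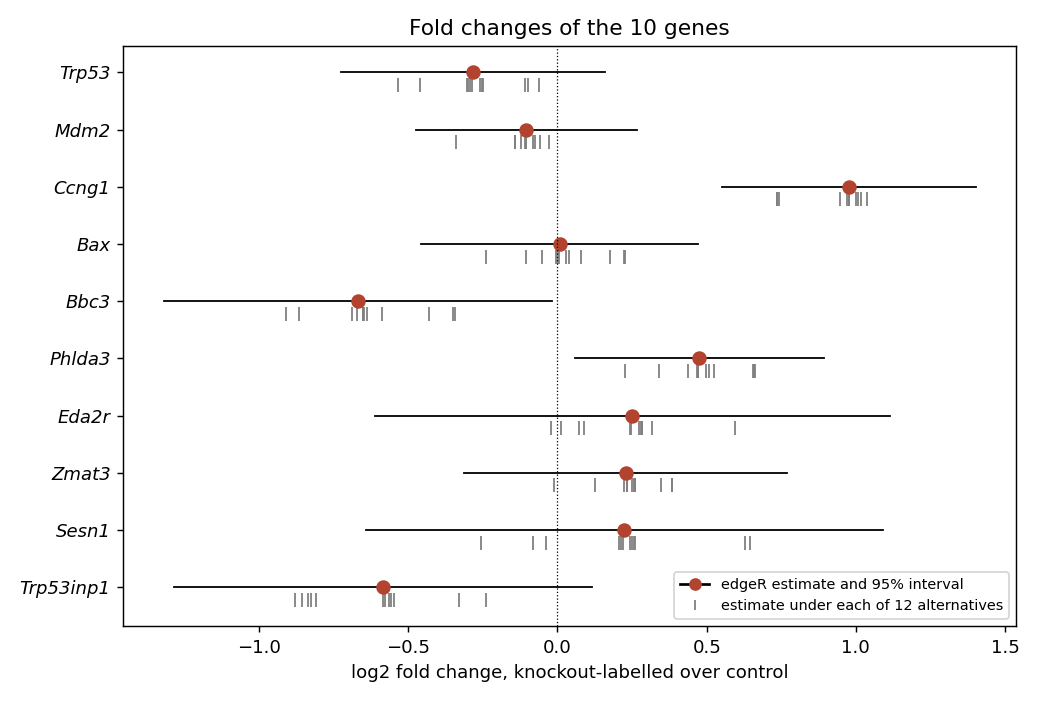
Log2 fold change of knockout-labelled over control hearts for each of the 10 genes (circles) with its 95% interval in edgeR (lines), and the estimates under each of 12 alternative analyses (grey marks). The intervals of Ccng1, Phlda3 and Bbc3 exclude 0, and the alternatives for Ccng1 stay between 0.74 and 1.04, whereas those for Bax, Eda2r, Zmat3 and Sesn1 fall on both sides of 0.

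The summed level of the 10 transcripts was 588 and 657 CPM in knockout-labelled libraries, against 498 and 435 CPM in controls. Without Ccng1 the sums were 277 and 342 CPM in knockout-labelled libraries, against 334 and 280.2 CPM in controls. The totals did not overlap between the groups with Ccng1, and overlapped without it.

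The share of other p53 targets that differed was also near the share among all genes. Of 53 further targets in 4 lists, all tested, edgeR and limma-voom passed 0 at an adjusted p under 0.05, with 7 up and 6 down in edgeR at an unadjusted p under 0.05, against 11.8% and 11.2% of all genes. DESeq2 passed 5 higher and 2 lower of the 52 with an adjusted p, against 5.85% higher and 4.65% lower of all genes. Both knockout-labelled values exceeded both control values for 14 targets and fell short of them for 13, against 26.5% and 29.7% of all genes, and the median log2 fold change was 0.04.

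Among the 13 arrest targets, DESeq2 passed 2 higher and 0 lower of the 12 with an adjusted p, against 5.85% and 4.65% of all genes. In edgeR 2 were up and 1 down at an unadjusted p under 0.05, against 11.8% and 11.2%. The DESeq2 calls, Ckap2 and Gtse1, are also genes of dividing cells. Ckap2, a protein of the mitotic spindle, was at 17.9 and 29.8 CPM in knockout-labelled libraries, against 6.63 and 11.7 CPM in controls, a log2 fold change of 1.38 ± 0.37 (SE, with adjusted p-values of 0.124 in edgeR and 0.00762 in DESeq2). Gtse1, which escorts p53 out of the nucleus in G2 phase, was at 7.92 and 11.6 CPM in knockout-labelled libraries, against 4.68 and 5.17 CPM in controls. The receptor phosphatase gene Ptprv was scarce, at 0.271 and 0.169 CPM in knockout-labelled libraries, against 0.901 and 0.429 CPM in controls, and Sfn, a checkpoint gene, was at 0.316 and 1.93 CPM against 4.80 and 1.37 CPM.

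Among the 16 targets in apoptosis, DESeq2 passed 3 higher and 0 lower, against 5.85% and 4.65% of all genes, and edgeR had 4 up and 1 down at an unadjusted p under 0.05, against 11.8% and 11.2%. Bak1, the relative of Bax that also opens the outer mitochondrial membrane, was at 41.7 and 32.0 CPM in knockout-labelled libraries, against 21.1 and 19.3 CPM in controls. Its log2 fold change was 0.87 ± 0.20 (SE, with adjusted p-values of 0.0983 in edgeR and 0.00802 in DESeq2). Perp, a membrane protein of desmosomes that also acts in p53-dependent death, was at 258 and 373 CPM in knockout-labelled libraries, against 190 and 185 CPM in controls, with knockout-labelled 2 the highest. Its log2 fold change was 0.75 ± 0.23 (SE, with adjusted p-values of 0.142 in edgeR and 0.0301 in DESeq2), and it was 0.47 without knockout-labelled 2. Rps27l, a ribosomal protein variant that lies in a p53 feedback loop, was at 72.2 and 104 CPM in knockout-labelled libraries, against 55.1 and 54.6 CPM in controls, and its log2 fold change of 0.69 was 0.28 once GC content and length trends were removed. The receptor gene Tnfrsf1b was lower, at 5.53 and 5.07 CPM against 10.4 and 8.54 CPM. Gdf15, named after its values were seen, was at 1.24 and 8.29 CPM in knockout-labelled libraries, against 0.772 and 1.17 CPM in controls, and its log2 fold change of 2.29 was 0.36 without knockout-labelled 2.

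Repair targets had no call in any tool. Of 9 repair targets DESeq2 passed 0, limma-voom 0 and edgeR 0, with 0 up and 2 down in edgeR at an unadjusted p under 0.05, against 11.8% and 11.2% of all genes. Without overlap 3 of the 9 were higher and 4 lower, against 26.5% and 29.7%, and the median log2 fold change was -0.09. The damage-recognition genes of nucleotide excision repair, Ddb2 and Xpc, were at 5.14 and 5.31 CPM and at 25.5 and 29.8 CPM in knockout-labelled hearts, against 9.76 and 8.30 CPM and 42.5 and 37.3 CPM in controls. Rrm2b, the p53-inducible ribonucleotide reductase subunit, was at 23.6 and 24.0 CPM against 16.9 and 19.6 CPM. The bypass polymerase gene Polh was at 11.2 and 16.6 CPM against 9.35 and 10.8 CPM. None of these 4 genes passed in either tool.

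Of 15 metabolic and autophagy targets DESeq2 passed 0 higher and 2 lower, against 5.85% and 4.65% of all genes, and edgeR had 1 up and 2 down at an unadjusted p under 0.05, against 11.8% and 11.2%. The median log2 fold change was -0.25. Ulk1, the kinase that starts autophagy, was at 67.0 and 61.1 CPM in knockout-labelled libraries, against 110 and 92.9 CPM in controls, a log2 fold change of -0.67 ± 0.17 (SE, with adjusted p-values of 0.113 in edgeR and 0.0341 in DESeq2) that was -0.19 once GC content and length trends were removed. Pltp, the phospholipid transfer protein, was at 3.59 and 2.57 CPM against 15.1 and 5.76 CPM, with control 1 the highest, and its log2 fold change of -1.75 was -0.90 without control 1. Tigar, a phosphatase that slows glycolysis, was at 44.6 and 53.3 CPM in knockout-labelled libraries, against 32.0 and 32.4 CPM in controls, a log2 fold change of 0.60 ± 0.17 (SE, with adjusted p-values of 0.126 in edgeR and 0.0535 in DESeq2). The autophagy gene Dram1 was at 4.90 and 8.35 CPM against 10.4 and 10.6 CPM.

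Among 21 regulators of p53, of which 19 were tested, Mdm4 differed most clearly. Mdm4 encodes the partner of Mdm2 that binds p53 and blocks its activity. It was at 109 and 97.8 CPM in knockout-labelled libraries, against 169 and 180.3 CPM in controls, with no overlap and little spread in either group. Its log2 fold change was -0.76 ± 0.17 (SE, with adjusted p-values of 0.0956 in edgeR and 0.00536 in DESeq2), and it lay between -0.997 and -0.678 over all alternatives tried. DESeq2 no longer called it without control 1 or without control 2. Mdm4 was the only regulator of the 19 that DESeq2 passed, against 4.65% lower among all genes. edgeR passed 0, with 0 up and 3 down at an unadjusted p under 0.05, against 11.8% and 11.2%. Without overlap 1 regulator was higher and 8 were lower, against 26.5% and 29.7%. The acetyltransferase genes Ep300 and Crebbp, whose products modify p53, were at 70.3 and 61.2 CPM and at 64.4 and 45.5 CPM in knockout-labelled hearts, against 101 and 89.8 CPM and 86.3 and 74.7 CPM in controls. Ppp1r13b, a cofactor that steers p53 to apoptosis genes, was at 36.6 and 39.9 CPM against 50.4 and 48.5 CPM. With GC content and length trends removed, the log2 fold changes of Ep300, Crebbp and Ppp1r13b shrank to -0.23, -0.24 and -0.06, while that of Mdm4 was -0.73.

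Of 24 genes of DNA damage signalling upstream of p53, DESeq2 passed 4 higher and 0 lower, against 5.85% and 4.65% of all genes. edgeR passed 0, with 5 up and 0 down at an unadjusted p under 0.05, against 11.8% and 11.2%. Without overlap 12 of the 24 were higher and 1 was lower, against 26.5% and 29.7%. The list was chosen with earlier results of these data known, so these shares are a description and not a test. The genes of the damage-sensing kinases Atm and Atr were among the 11 that overlapped. Atm was at 18.8 and 10.5 CPM in knockout-labelled libraries, against 17.3 and 16.2 CPM in controls, and Atr at 25.1 and 29.1 CPM against 23.6 and 26.0 CPM, both named after their values were seen. Chek1, the checkpoint kinase of S phase, was at 7.90 and 5.45 CPM in knockout-labelled libraries, against 2.53 and 2.90 CPM in controls, a log2 fold change of 1.30 ± 0.33 (SE, with adjusted p-values of 0.113 in edgeR and 0.00903 in DESeq2). Its adaptor Clspn was at 14.4 and 9.13 CPM against 4.72 and 5.36 CPM. The repair gene Brca1 was at 10.2 and 6.16 CPM against 3.60 and 4.03 CPM, and Nbn, of the complex that senses broken ends, at 53.5 and 55.4 CPM against 34.0 and 37.7 CPM. Chek1, Clspn and Brca1 are also transcribed with the cell cycle, and all 3 were higher in knockout-labelled 1 than in knockout-labelled 2. Ccnb2, Cdk1, Ccna2 and Birc5, the named genes of the cell cycle list that follows, had the opposite order. Cdk1 was at 42.6 CPM in knockout-labelled 1 and 88.7 CPM in knockout-labelled 2. The part of the cell cycle in these values was not tested.

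Cell cycle genes that p53 lowers through p21 had higher levels in the knockout-labelled hearts. Of 12 such genes, all 12 had knockout-labelled values above every control value, against 26.5% of all genes, and their median log2 fold change was 1.15. DESeq2 passed 5 higher and 0 lower, against 5.85% and 4.65% of all genes. edgeR passed 0, with 9 up and 0 down at an unadjusted p under 0.05, against 11.8% and 11.2%. Ccnb2, a mitotic cyclin, was at 28.5 and 45.3 CPM in knockout-labelled libraries, against 11.3 and 16.1 CPM in controls, and Cdk1, its kinase, at 42.6 and 88.7 CPM against 20.0 and 27.1 CPM. Ccna2, cyclin A2, and Birc5, survivin, had log2 fold changes of 1.28 ± 0.29 and 1.36 ± 0.34 (SE). Over 16 alternatives the log2 fold change ran from 1.062 to 1.773 for Ccnb2 and from 0.859 to 1.963 for Cdk1. The range was 0.935 to 1.751 for Ccna2 and 0.914 to 1.758 for Birc5. Without knockout-labelled 2, edgeR gave 0.862 for Cdk1. Members of this list vary together with the cell cycle, so their number is not that of independent genes. The list was also chosen with earlier results of these data known, so its shares are a description and not a test.

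**Figure D4:**
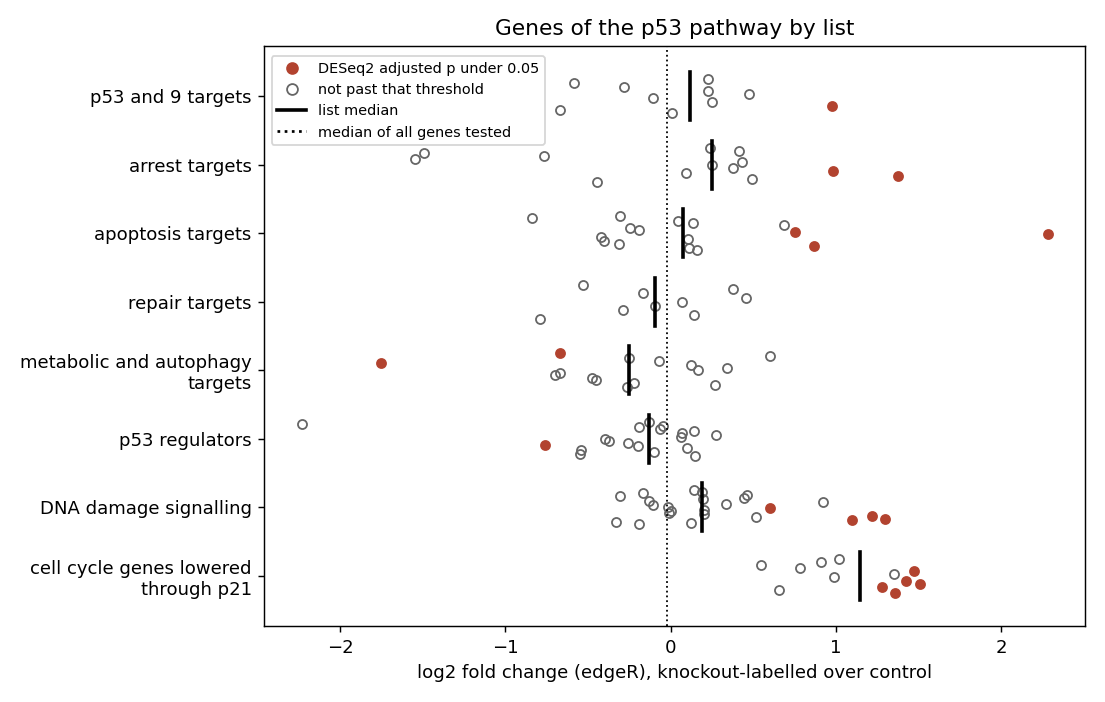
Log2 fold change in edgeR (horizontal axis, knockout-labelled over control) of every tested gene in the list of 10 and in 7 further lists of the p53 pathway, filled where DESeq2's adjusted p is under 0.05, with the list median as a bar and the median of all genes (-0.02) as a dotted line. Medians lie between -0.25 and 0.25 in 7 of the lists, the 10 genes included, and at 1.15 for the cell cycle genes lowered through p21.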

How the data were processed

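PolyA RNA from frozen ventricles was made into stranded Kapa libraries, per the labels' protocols. The submitters' processing notes list bcl2fastq 2.16.0.10, STAR 2.5.3a, HTSeq 0.6.1 and the GRCm38 build. Neither the annotation release nor the strand setting is given in the sources used here. The deposited counts are unscaled reads per gene. The authors' table repeats them without a difference and adds log2 fold changes, p-values and adjusted p-values deposited by the authors, whose notes name DESeq2. Its 14 other columns, 4 of them normalized values per sample, were not used. The 5 HTSeq summary rows were kept out of library sizes. Of 53465 genes, 53360 matched GENCODE vM21 by identifier for symbols, positions and lengths.

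The fit used edgeR 4.0.16 under R 4.3.3 (filterByExpr, TMM, quasi-likelihood test, knockout over control, no covariate). Every p was adjusted across the tested genes by Benjamini and Hochberg's method, with 0.05 as threshold. SE is the log2 fold change divided by the root of the F statistic. RPKM used TMM-scaled totals and the union of exons. In a check on a single simulated set with 2 libraries a group, the share of false calls was above the threshold in edgeR, limma-voom and DESeq2. It was highest in DESeq2, but a single set cannot rank the tools. Adjusted p-values, DESeq2's included, may be too small. The simulated counts followed edgeR's dispersions and only a small share of genes was changed, so the shares of false calls in these data may differ. DESeq2 1.42.0, limma-voom (limma 3.58.1), other scaling, no filter, a replicate block, GC and length offsets and leaving out each library were the alternatives. The 10 genes, 7 further p53 lists and 10 marker lists were chosen with earlier results of these data known. Besides the 10, Cdkn1a and Ctnnb1, the 4 genes with the smallest edgeR p of each p53 list were named. Nearly identical transcripts were sought with blastn 2.17.0.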

Additional observations from a re-analysis of the deposited data

How the results depend on the processing

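Of 160 repeats of the 10 fold changes, 13 changed direction, all of Bax, Eda2r, Zmat3 or Sesn1. Among the other 31 named genes, those that changed direction were Cdkn1a and Ctnnb1. With library totals alone, which moved the median of all genes from -0.02 to -0.26, the log2 fold changes were -0.24 for Bax, -0.011 for Zmat3, -0.037 for Sesn1 and -0.009 for Ctnnb1, and limma-voom gave -0.006 for Bax. Over fits that each left out 1 library, edgeR gave -0.107 to 0.175 for Bax, -0.256 to 0.645 for Sesn1, -0.021 to 0.596 for Eda2r and -0.038 to 1.323 for Cdkn1a, and DESeq2 gave -0.11 to 0.162 for Bax, -0.259 to 0.651 for Sesn1 (-0.068 without control 2), 0 to 0.611 for Eda2r and -0.041 to 1.345 for Cdkn1a (-0.008 without control 2). In these fits 1 group has a lone library that is assumed to vary like the other group.

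The calls depended on the tool and the filter. Of the 10 genes edgeR passed 0, with 3 at an unadjusted p under 0.05, while DESeq2 passed 1 (Ccng1) and edgeR without a filter on low counts passed 1 (Ccng1, adjusted p = 0.0404). DESeq2 passed 0 to 2 of the 10 with 1 library left out. Over all genes edgeR passed 2, DESeq2 1731, edgeR without a filter 554 and limma-voom 0, with 4035 at an unadjusted p under 0.05. With 1 library left out edgeR passed 0 to 30 and DESeq2 155 to 2493 (521 without control 2 and 1138 without knockout-labelled 2). Of the 108 other p53 pathway genes tested, edgeR passed 0, DESeq2 17 and edgeR without a filter 3, and DESeq2 passed 0 to 24 with 1 library left out (8 without control 2 and 14 without knockout-labelled 2).

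With the replicate number as a block, edgeR passed 18 of all genes and 0 of the 10, and Ccng1 had a log2 fold change of 0.98 (adjusted p = 0.106). With the block and GC content and length removed together it passed 0 of all genes, with 2876 at an unadjusted p under 0.05. Deviations of same-numbered libraries from their group means correlated at -0.108 across 18157 genes. With 2 libraries a group this value cannot decide whether the numbers pair the libraries, since features of single libraries also enter it. With the pairs crossed, a fit chosen after seeing the data, as were DESeq2's fits with a library left out, edgeR passed 941 of all genes, 1 of the 10 and 5 of the other pathway genes. Eda2r, with 96 to 168 reads a library, had the fewest reads of the 10. Its SE of 0.354 in edgeR was also that of Sesn1, which had 3042 to 4794 reads a library. How far depth limits its precision was not tested.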
